A study of Homo sapiens with 24 samples.

Results

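The genes described are 10 immediate early response genes, NR4A1, JUN, JUNB, FOS, EGR1, MYC, IER2, KLF10, ATF3 and BTG2. They were chosen by symbol, and their transcripts were found in the deposited peak lists through RefSeq accessions. In 9 of the 10 at least 1 peak was listed, among 9560 genes with a peak in any list. The methyl mark m6A (N6-methyladenosine) of messenger RNA was mapped by precipitating polyadenylated RNA with an antibody to the mark and sequencing the bound RNA beside its input. U2OS cells, from a human osteosarcoma, were grown with 10 µM BrdU in all groups. The cells were wild type (WT) or carried a knockout (KO) of METTL3, the catalytic subunit of the main m6A methyltransferase of the nucleus. The irradiated groups received UVC at a labelled dose of 50 J and were lysed after 2 min, and the unirradiated groups received none. Unirradiated WT had 3 immunoprecipitated (IP) libraries, irradiated WT 4, unirradiated KO 3 and irradiated KO 2. Whether the KO was 1 clone was not stated in the labels, and a peak list measures no transcript or protein level, so the knockout could not be checked.

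Immediate early genes are switched on within minutes of growth factors, stress or DNA damage from transcription factors already present in the cell, without new protein synthesis. Most encode transcription factors themselves, and their messages and proteins are short-lived. JUN, JUNB, FOS and ATF3 supply subunits of AP-1-type leucine zipper dimers, EGR1 and KLF10 are zinc finger factors, NR4A1 is an orphan nuclear receptor and MYC is a helix-loop-helix factor of growth and proliferation. BTG2 is an antiproliferative protein that binds the CCR4-NOT deadenylase and is also a target of p53. IER2 is a nuclear protein of the immediate early response. m6A is placed mostly in the sequence context of GGAC-like motifs and is known for marking short-lived messages.

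Each condition had 1 deposited list for all its replicates, in which each peak is a RefSeq transcript with the first and last base of the peak. The lists hold no score or read count, and their depth is unknown. No value has a replicate error and no difference between conditions could be tested. Positions are given as start to end on the listed transcript, counted from 1, and what part of the message they fall in (coding region or UTR) was not determined here. The 4 lists held 13989 peaks (unirradiated WT), 15465 (irradiated WT), 13852 (unirradiated KO) and 9471 (irradiated KO). Of the lineage markers, 4 of 9 osteoblast genes had a peak in any list (RUNX2, SPP1, COL1A1 and SPARC, with SP7, ALPL, BGLAP, IBSP and COL1A2 at 0). Of the blood markers 0 of 4 had a peak, of the epithelial markers 2 of 4 (EPCAM and KRT8) and of the neuronal markers 1 of 4 (RBFOX3).

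The immediate early transcripts carried 16 peaks in unirradiated WT, 13 in irradiated WT, 15 in unirradiated KO and 17 in irradiated KO. As deposited, the irradiated KO list, the shortest of the 4, held the most peaks on these genes, and the irradiated WT list, the longest, held the fewest. With only peaks of at least 120 bases the counts were 13, 13, 14 and 14, so neither list stood alone at that setting. With peaks under 100 bases apart merged they were 15, 10, 12 and 16. With the widest 9471 peaks of each list they were 11, 10, 12 and 17, a setting that leaves the irradiated KO list whole. Irradiated KO was highest and irradiated WT lowest at both of these settings. A peak was listed on 8 members in unirradiated WT, where 74.6% of the 9560 genes had one. It was listed on 8 in irradiated WT (83.4% of genes), 7 in unirradiated KO (72.9%) and 9 in irradiated KO (57.7%). In every list at once, 7 members had a peak (NR4A1, JUN, JUNB, EGR1, MYC, IER2 and BTG2), beside 41.2% of all genes. KLF10 lacked a peak in unirradiated KO alone, ATF3 had a peak in irradiated KO alone, and FOS had none in any list. The members are few, and 1 of the 10 lies outside the 9560 genes, so these counts are set beside the shares as description.

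**Figure D1:**
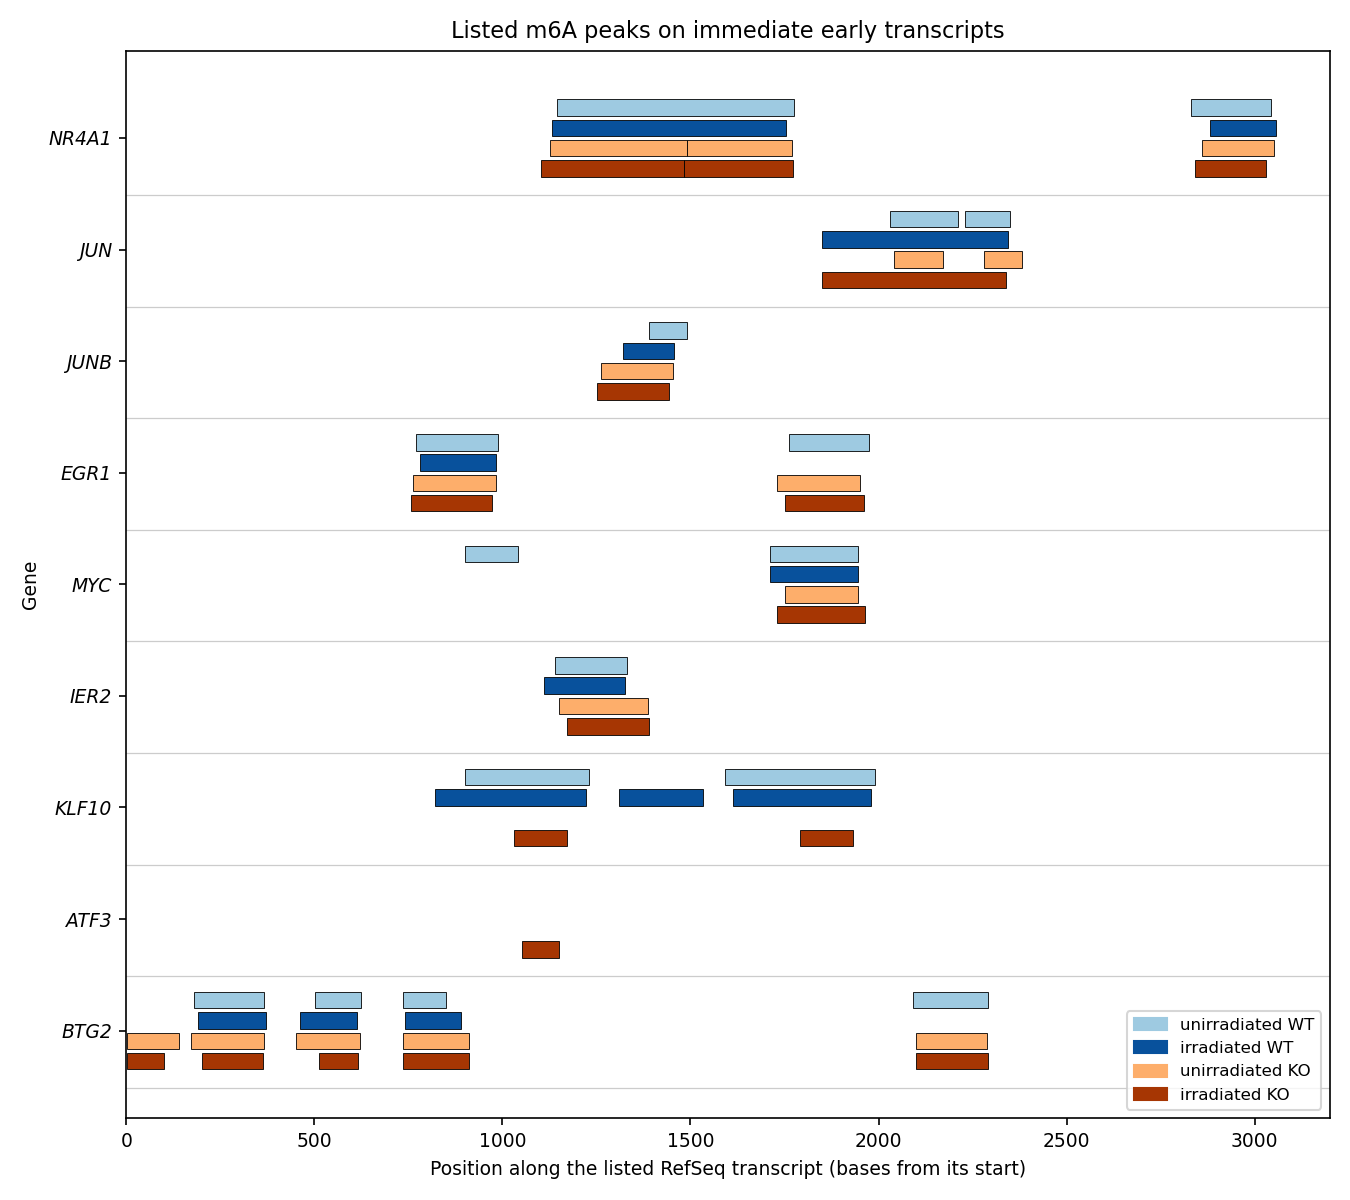
Position of every listed peak on the 9 immediate early transcripts with a peak, in bases from the transcript's start (horizontal axis), with 1 bar per peak and 1 row per list for each gene (colours). The 2 JUN peaks of each list without UV lie where each list with UV has 1 long peak, and the rows of EGR1 and BTG2 show a gap in irradiated WT.

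BTG2 (chromosome 1, 203305519 to 203309602, GRCh38.p14; transcript NM_006763) had the most peaks of the members. It carried 4 peaks in unirradiated WT, 3 in irradiated WT and 5 in each KO list, over 622, 483, 872 and 733 bases in that order. Of the 9560 genes, 0 others had these 4 counts. How often other genes with as many peaks lack a match was not counted. With peaks under 100 bases apart merged the BTG2 counts were 4, 2, 3 and 5. With only peaks of at least 120 bases they were 3, 3, 5 and 3. A share of 10.1% of the genes with a peak in unirradiated WT had 4 or more peaks, against 9.86% in irradiated WT, 10.8% in unirradiated KO and 5.69% in irradiated KO. The peaks fell in 5 regions, of which 3 were in every list and lay within the first 911 bases.

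The first BTG2 region began at the very start of the transcript and was listed in KO cells alone. It lay at 1 to 139 in unirradiated KO and 1 to 100 in irradiated KO. The irradiated KO peak had the smallest width in the lists, 100 bases, and was dropped with only peaks of at least 120 bases. In unirradiated KO the peak lay 31 bases from the next one, in a region of every list. With peaks under 100 bases apart counted as 1, the 2 were joined. Over all transcripts, regions in both KO lists and in neither WT list made up 527 of 20811 regions (2.53%). The last BTG2 region was missing from irradiated WT alone. It was listed at 2093 to 2289 in unirradiated WT, 2099 to 2288 in unirradiated KO and 2101 to 2289 in irradiated KO. Its ends differed by 1 base among those 3 lists. Regions in every list but irradiated WT made up 289 of 20811 (1.39%), and 2 of the 18 immediate early regions had that pattern.

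The start of BTG2 is shown because a peak covered it, beside the start of JUNB, which holds the same motif and had no peak there. The sequences are those of RefSeq on GRCh38.p14, each 30 bases long, with the motif GGAC in capitals. The BTG2 bases are 21 to 50 from the annotated start, at chr1:203305539-203305568 on the plus strand, and the JUNB bases are 1 to 30, at chr19:12791486-12791515 on the plus strand.
BTG2: ggtaacgctgtcttgtGGACccgcacttcc
JUNB: gGGACcttgagagcggccaggccagcctcg
Counted from 1 at the annotated start, the motif began at base 37 in BTG2, within the start peak of both KO lists, and at base 2 in JUNB. Whether the base at this motif carried the mark was not tested. Peaks that begin at base 1 were listed in every condition. They numbered 505 in unirradiated WT, 639 in irradiated WT, 551 in unirradiated KO and 388 in irradiated KO. The motif was searched on the transcript's strand alone, in the first 50 bases of 10 annotated starts of 8 members found in the RefSeq promoter table. The starts of BTG2 and JUNB were the 2 that held it. Of 35116 annotated starts, 6632 (18.9%) held it. The lists give no accession version, so base 1 of a listed transcript may differ from the annotated start.

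The 3 inner BTG2 regions kept close positions in every list. The second lay at 181 to 366 in unirradiated WT, 191 to 371 in irradiated WT, 171 to 366 in unirradiated KO and 201 to 363 in irradiated KO. The third lay at 501 to 623, 461 to 611, 452 to 621 and 511 to 616 in the same order. The fourth began at 735 in unirradiated WT and in both KO lists, and at 740 in irradiated WT. It ended at 850 and 890 in the WT lists and at 911 and 909 in the KO lists, so it reached further in KO cells by 19 bases or more. The centres of these 3 regions spanned 13.5, 27.5 and 30.5 bases over the lists.

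JUN (chromosome 1, 58780791 to 58784047; NM_002228) encodes the AP-1 subunit c-Jun, which JNK kinases activate after UV. It had 2 peaks in each list without UV and 1 in each list with UV. The peaks lay at 2031 to 2210 and 2231 to 2348 in unirradiated WT, and at 2041 to 2170 and 2281 to 2380 in unirradiated KO. With UV they were replaced in the lists by a peak of 493 bases at 1851 to 2343 in WT and of 488 bases at 1851 to 2338 in KO. The UV peaks of the genotypes began at the same base and shared 99.0% of the bases under either. In the lists with UV the peak began 180 and 190 bases before the first peak of the same genotype without UV, and total peak length was greater by 195 bases in WT and 258 in KO.

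The JUN arrangement was found in 36 of the 5340 regions that were present in every list (0.674%), counting regions with 2 peaks in both lists without UV and 1 in both with UV. The opposite arrangement was found in 22 (0.412%). A start at least 50 bases earlier in both lists with UV was found in 36 regions (0.674%), JUN among them, and a start at least 50 bases earlier in both without UV in 41 (0.768%). The gap between the JUN peaks was 20 bases in unirradiated WT and 110 bases in unirradiated KO. When peaks of a list under 100 bases apart were counted as 1, JUN had 1 peak in unirradiated WT and 2 in unirradiated KO, so the count then differed with UV in KO alone. With only peaks of at least 120 bases, JUN had 1 peak in each list, and the lists then differed in its width, start and end but not in the count.

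JUNB (chromosome 19, 12791486 to 12793315; NM_002229), an AP-1 subunit that can oppose JUN, had 1 peak in each list. The peak lay at 1391 to 1490 in unirradiated WT, 1321 to 1454 in irradiated WT, 1262 to 1452 in unirradiated KO and 1251 to 1443 in irradiated KO. It was 100 and 134 bases wide in the WT lists and 191 and 193 in the KO lists. The KO peaks therefore began 59 bases or more before either WT peak, while the ends lay within 47 bases of each other. The same 53 bases, 1391 to 1443, lay under the peak of every list. A start at least 50 bases earlier in both KO lists than in both WT lists was found in 37 of 5340 regions (0.693%), and the opposite in 115 (2.15%). The unirradiated WT peak had the smallest width in the lists, 100 bases.

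FOS (chromosome 14, 75278828 to 75282230), the usual partner of JUN in AP-1, had 0 peaks in every list. FOSB and FOSL1 of the same family also had 0, whereas FOSL2 had 1 peak in each list, over 523, 340, 490 and 470 bases. With no read count or transcript level in the lists, the absence of a peak is not a measurement of the absence of the mark. ATF3 (chromosome 1, 212565407 to 212620777; NM_001040619), a stress-induced leucine zipper factor, had 1 peak, in irradiated KO, at 1051 to 1150. It had the smallest width in the lists, 100 bases. Of all genes, 167 (1.75%) had a peak in irradiated KO alone. RefSeq holds 6 NM transcripts of ATF3, and the lists name 1 of them.

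**Figure D2:**
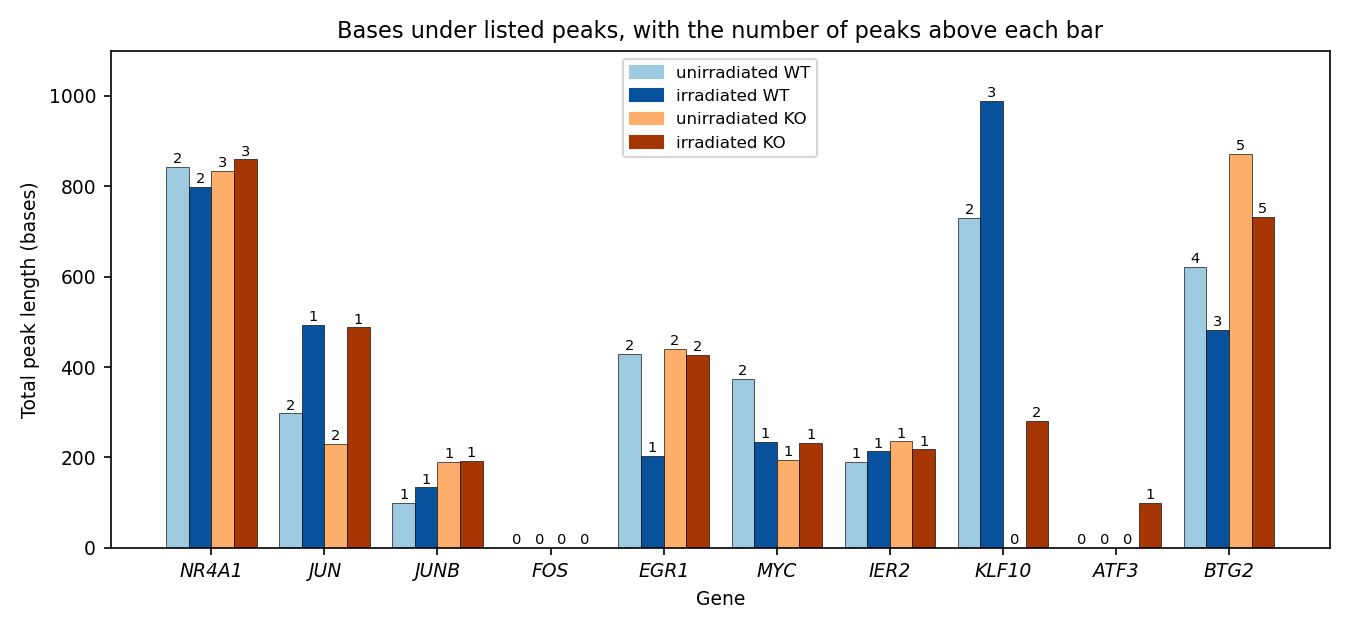
Total length of listed peaks in bases (vertical axis, from 0) for the 10 genes, with a bar for each list and the number of peaks above it. KLF10 is highest in irradiated WT with 989 bases and has none in unirradiated KO, and FOS has none in any list.

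EGR1 (chromosome 5, 138465479 to 138469303; NM_001964), a zinc finger factor induced by serum and UV, had 2 peaks in every list but irradiated WT, which had 1. The peak present in every list lay at 771 to 987 in unirradiated WT, 781 to 983 in irradiated WT, 761 to 981 in unirradiated KO and 757 to 972 in irradiated KO. The centres of that peak spanned 17.5 bases. The other lay at 1761 to 1973 in unirradiated WT, 1731 to 1949 in unirradiated KO and 1751 to 1961 in irradiated KO. It was absent from irradiated WT, as was the last BTG2 region. Total peak length was 430 bases without UV and 203 with UV in WT, and 440 and 427 in KO.

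KLF10 (chromosome 8, 102648784 to 102655725; NM_001032282), a zinc finger repressor induced by TGF-beta, had 2 peaks in unirradiated WT, 3 in irradiated WT, 0 in unirradiated KO and 2 in irradiated KO. In unirradiated WT they lay at 901 to 1230 and 1591 to 1990, and in irradiated WT at 821 to 1220, 1311 to 1533 and 1613 to 1978. In irradiated KO they lay at 1030 to 1170 and 1791 to 1930, inside the outer WT peaks. The irradiated KO peaks were 141 and 140 bases wide, and the overlapping WT peaks 330 to 400 bases. The total was 281 bases in irradiated KO against 730 and 989 in the WT lists. A peak in every list but unirradiated KO was found for 402 of 9560 genes (4.21%). The middle peak was in irradiated WT alone, a pattern of 2256 of 20811 regions (10.8%). It lay 90 and 79 bases from its neighbours, and with peaks under 100 bases apart counted as 1, KLF10 had 1 peak in irradiated WT.

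NR4A1 (chromosome 12, 52022832 to 52059503; NM_001202234), also called NUR77, is an orphan nuclear receptor that acts in the response to stress and in apoptosis. It had 2 peaks in each WT list and 3 in each KO list, over 843, 799, 834 and 860 bases. The long region was 1 peak in WT cells, at 1145 to 1773 without UV and 1131 to 1753 with it. In KO cells it was listed as 2 peaks that abutted with 0 bases between them, at 1127 to 1490 and 1491 to 1769 without UV and at 1103 to 1481 and 1482 to 1772 with it. The bases covered were nearly the same: 93.2% of those under an unirradiated WT or unirradiated KO peak lay under both. A region with 1 peak in both WT lists and 2 in both KO lists was found in 46 of 5340 regions (0.861%), and the reverse in 47 (0.880%). With abutting peaks counted as 1, NR4A1 had 2 peaks in every list. Abutting pairs numbered 642, 716, 576 and 310 over all transcripts of the 4 lists.

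The other NR4A1 region lay near the far end of the listed peaks, at 2831 to 3044 in unirradiated WT, 2881 to 3056 in irradiated WT, 2861 to 3051 in unirradiated KO and 2841 to 3030 in irradiated KO. Its centres spanned 33.0 bases. The WT peaks of the long region, 629 and 623 bases, were the widest on any member. Peaks of 350 bases or more made up 4.95% of unirradiated WT, 5.37% of irradiated WT, 4.35% of unirradiated KO and 3.46% of irradiated KO. On the members such peaks numbered 2 of 16, 4 of 13, 1 of 15 and 2 of 17 and belonged to NR4A1, JUN and KLF10.

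MYC (chromosome 8, 127735434 to 127742951; NM_002467) had 2 peaks in unirradiated WT and 1 in each other list. The peak of every list lay at 1711 to 1944 in both WT lists, at 1751 to 1945 in unirradiated KO and at 1731 to 1963 in irradiated KO. Its start and end were thus the same with and without UV in WT cells. The additional peak, at 901 to 1040, was in unirradiated WT alone, as were 1776 of 20811 regions (8.53%). IER2 (chromosome 19, 13150411 to 13154911; NM_004907) had 1 peak in each list, at 1141 to 1330 in unirradiated WT, 1111 to 1324 in irradiated WT, 1151 to 1386 in unirradiated KO and 1171 to 1388 in irradiated KO. The IER2 peak ended at least 56 bases later in both KO lists than in either WT list. An end at least 50 bases later in both KO lists was found in 53 of 5340 regions (0.993%), and in both WT lists in 119 (2.23%).

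Peaks of all lists that overlapped on a transcript were merged, which gave 18 regions on the members. Of these 10 (55.6%) were present in every list, beside 5340 of 20811 regions (25.7%) over all transcripts. A further 4 were in 3 lists, 1 in 2 lists and 3 in 1 list, beside 20.9%, 21.9% and 31.6% of all regions. The 4 regions in 3 lists were the outer pair of KLF10, absent from unirradiated KO, and the last regions of EGR1 and BTG2, absent from irradiated WT. In those present in every list, the starts spanned a median of 46.0 bases (29.0 over all transcripts), the ends 23.0 bases (24.0) and the centres 29.0 bases (26.0). Of the 10 member regions, the centre differed most on JUN, by 116.0 bases, on JUNB, by 93.5, and on IER2, by 62.0. Over all 5340 regions this distance reached 467.5 bases. Without the irradiated KO list, 10 of 17 member regions (58.8%) were in each of the other 3 lists, beside 39.3% of all regions.

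**Figure D3:**
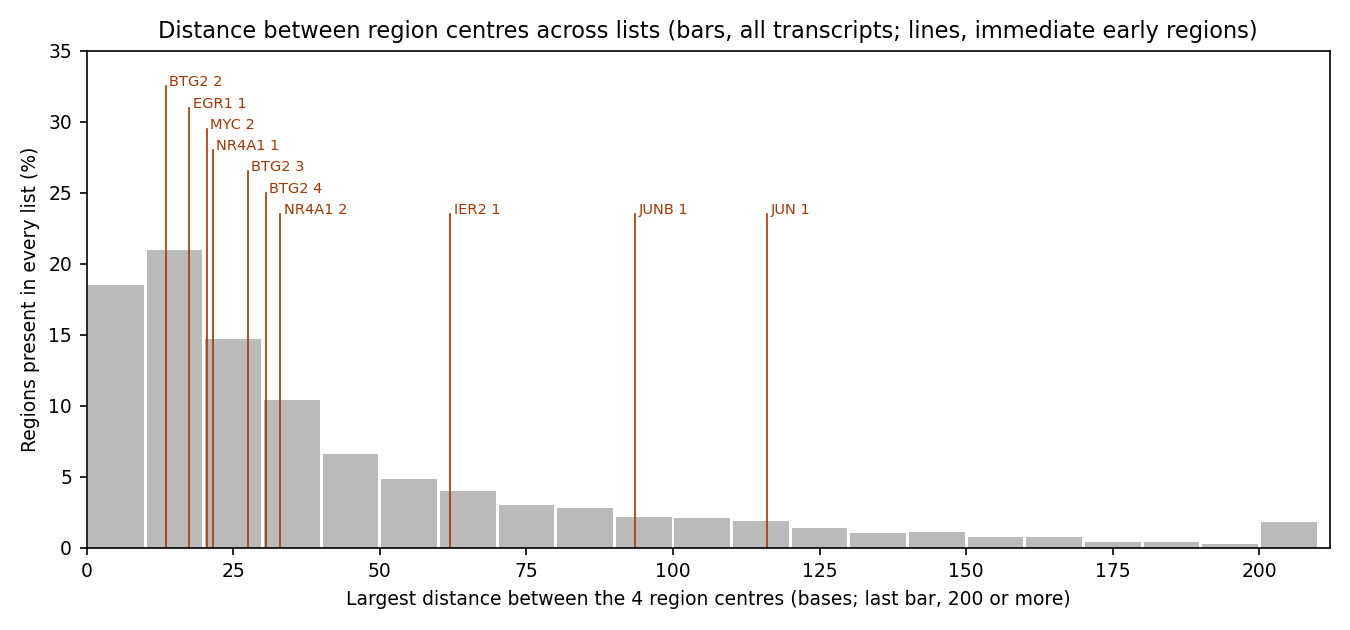
Largest distance in bases between the centres of a region in the 4 lists (horizontal axis), as the percentage of the 5340 regions present in every list (grey bars, 10 bases each) and for the 10 immediate early regions (lines, labelled by gene and order along the transcript; line height has no meaning). JUN, JUNB and IER2 are at 62.0 bases or more, and the other 7 at 33.0 bases or less. Regions of all transcripts also lie at such distances, with 4.03% in the bar that begins at 60 bases and 1.82% at 200 or more.

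In WT cells, the comparison of UV with no UV asked whether m6A is placed on messages within minutes of the damage. On the immediate early genes, 1 of 13 irradiated WT peaks (7.69%, exact 95% interval 0.195 to 36.0) overlapped no unirradiated WT peak, beside 30.0% of all irradiated WT peaks. It was the middle peak of KLF10. In the other direction 3 of 16 unirradiated WT peaks (18.8%, 4.05 to 45.6) had no irradiated WT partner, beside 22.4% of all. These were the first MYC peak, the second EGR1 peak and the last BTG2 peak. At the gene level, 0 members had a peak in irradiated WT and none in unirradiated WT, beside 17.4% of all genes, and 0 had the reverse, beside 8.61%. Intervals are Clopper-Pearson intervals for counting error alone, and peaks on 1 transcript are not independent.

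In KO cells, all 15 unirradiated KO peaks on the members overlapped an irradiated KO peak. The 0 without an overlap has an exact upper bound of 21.8%, beside 47.0% of all unirradiated KO peaks. Of the 17 irradiated KO peaks, 3 (17.6%, 3.80 to 43.4) had no unirradiated KO partner, beside 22.6% of all, and they were the pair on KLF10 and the peak on ATF3. These were also the 2 members with a peak with UV alone in KO cells, beside 8.62% of all genes, and 0 had one without UV alone, beside 23.8%. The irradiated KO list came from 2 IP libraries and unirradiated KO from 3, and the part of that difference in these counts was not tested.

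Without UV, the genotypes were compared to see which peaks are listed in cells with METTL3 and not in the knockout. Of the 16 unirradiated WT peaks, 3 (18.8%, 4.05 to 45.6) overlapped no unirradiated KO peak, beside 32.1% of all, and they were the pair on KLF10 and the first MYC peak. Of the 15 unirradiated KO peaks, 1 (6.67%, 0.169 to 31.9) had no WT partner, the start peak of BTG2, beside 31.1% of all. KLF10 was the 1 member with a peak in WT alone, beside 16.4% of all genes, and 0 members had one in KO alone, beside 14.7%. Both lists came from 3 IP libraries. On the 7 members with a peak in both, 72.3% of the bases under a peak of either list lay under both, beside 58.3% over all transcripts with a peak in both.

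With UV, 1 of 13 WT peaks (7.69%, 0.195 to 36.0) had no KO partner, again the middle KLF10 peak, beside 51.0% of all irradiated WT peaks. Of the 17 irradiated KO peaks, 4 (23.5%, 6.81 to 49.9) had no irradiated WT partner, beside 19.3% of all. They were the second EGR1 peak, the first and last BTG2 peaks and the ATF3 peak. At the gene level 0 members had a peak in WT alone, beside 31.4% of genes, and 1, ATF3, in KO alone, beside 5.68%. The bases under peaks of both lists made up 60.8% on the members with a peak in both and 56.0% over all such transcripts. For the same measure, the WT lists with and without UV gave 65.9% (63.6% over all transcripts) and the KO lists 80.2% (57.3%). Irradiated WT came from 4 IP libraries and irradiated KO from 2, and the part of that difference was not tested. These comparisons share lists with each other and are not independent.

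The same counts were made on transcripts that both lists of a pair name, which leaves out genes listed in 1 of them. Between the WT lists, 1 of 13 irradiated peaks (7.69%) had no overlap, beside 17.3% of all such peaks, and 3 of 16 unirradiated peaks (18.8%), beside 15.0%. Between the KO lists it was 0 of 14 irradiated peaks, beside 13.4%, and 0 of 15 unirradiated peaks, beside 25.0%. Without UV it was 1 of 14 WT peaks (7.14%), beside 18.3%, and 1 of 15 KO peaks (6.67%), beside 19.8%. With UV it was 1 of 13 WT peaks (7.69%, 0.195 to 36.0), beside 25.5%, and 3 of 16 KO peaks (18.8%), beside 13.5%. The share on the members was thus below that of all peaks in 6 of 8 directions and above it in 2. The member interval left out the share of all peaks for unirradiated KO against irradiated KO alone. That interval takes peaks on 1 transcript as independent, so this is a description and not a test. With only peaks of at least 120 bases the member share in that direction was 14.3%, and the share of all peaks was not computed there.

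**Figure D4:**
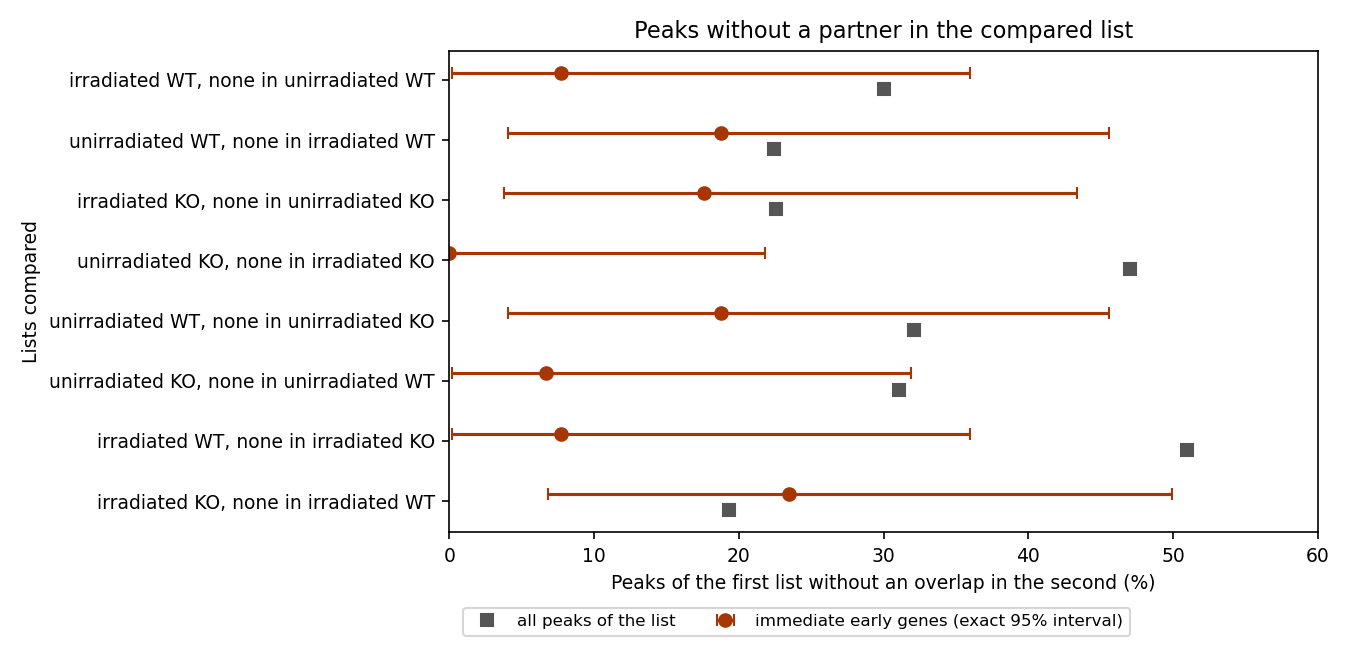
Percentage of the peaks of the first-named list without an overlap in the second (horizontal axis) for peaks on the immediate early genes (circles, with exact 95% intervals for counting error) and for all peaks of that list (squares). The member value lies below that of all peaks in 7 of 8 directions, and the interval leaves out the value of all peaks for unirradiated KO against irradiated KO and for irradiated WT against irradiated KO, of which the first alone did so on transcripts named in both lists.

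The pattern of peak numbers was set beside that of 42 other immediate early and family genes with a peak. EGR1, with 2, 1, 2 and 2 peaks, shared its 4 counts with SRF, the serum response factor that drives many immediate early promoters, and with IER5L. SRF had 454, 210, 324 and 300 bases under peaks in the 4 lists. JUNB, with 1 peak in each list, was nearest in total peak length (618 bases) to JUND (658), IER3 (745) and ATF4 (921). IER2, with the same counts and 858 bases, was nearest to ATF4, DUSP5 (965) and IER3. These counts are common, since 819 other genes had 1 peak in each list and 45 had those of EGR1. No gene of these lists matched NR4A1, JUN, MYC, KLF10, ATF3 or BTG2. Over all genes, 158 others had the counts of ATF3, 81 those of MYC, 40 those of NR4A1 and 39 those of JUN. The counts of KLF10 were shared by 3 others and those of BTG2 by 0.

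Among 30 other immediate early genes, 20 had a peak in any list. Of these 20, 16 had one in every list, beside 41.2% of the 9560 genes. The 9560 genes all have a peak in some list, so the 20 are the set to compare with them. A peak was listed on 19 in unirradiated WT, irradiated WT and unirradiated KO, and on 17 in irradiated KO. The shares of all genes were 74.6%, 83.4%, 72.9% and 57.7% in that order. Between the WT lists, ZFP36, which promotes decay of messages with AU-rich elements, had 2 peaks with UV alone, and NFKBIA, the inhibitor of NF-kappaB, had 1 without UV alone. Each was the 1 gene of the 30 to do so, beside 17.4% of all genes with UV alone and 8.61% without UV alone. Between the KO lists, SGK1, a serum-induced kinase, and TNFAIP3, a brake on NF-kappaB, had peaks without UV alone. Of the 30 genes, 0 had one with UV alone. The shares of all genes between the KO lists were 23.8% without UV alone and 8.62% with UV alone. Without UV, 0 of the 30 had a peak in a single genotype, beside 16.4% of all genes in WT alone and 14.7% in KO alone. With UV 3 had one in WT alone (ZFP36, SGK1 and TNFAIP3), beside 31.4%, and 1 in KO alone (NFKBIA), beside 5.68%. DUSP1, a phosphatase that switches off MAP kinases, had 2, 2, 1 and 3 peaks, CCN1 had 3, 2, 2 and 2, and MCL1 had 3, 3, 2 and 2. EGR2, EGR3, EGR4, NR4A2, NR4A3, KLF2, KLF4 and MAFF had 0 in every list, as had FOSB and FOSL1.

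Of 21 genes of the pathway that induces the members, 18 had a peak in any list. Of these 18, the set to compare with the shares of all genes, 15 had one in every list, beside 41.2%. Peaks were listed on 17, 17, 17 and 16 in the order used above, beside 74.6%, 83.4%, 72.9% and 57.7% of all genes. MRTFB, a coactivator of SRF, had 4, 6, 6 and 0 peaks. It was the 1 gene of the 21 with a peak in unirradiated KO and none in irradiated KO, beside 23.8% of all genes. With UV it was the 1 gene with a peak in WT alone, beside 31.4%. The kinase RPS6KA3 had 0, 2, 2 and 2, the 1 gene with a peak in irradiated and not unirradiated WT, beside 17.4%. BRAF had 1 in unirradiated WT alone, the 1 gene with the reverse between the WT lists, beside 8.61%. The ternary complex factors ELK1, ELK3 and ELK4, which bind with SRF, had a peak in every list, and CREB1 had 3, 3, 1 and 3.

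**Figure D5:**
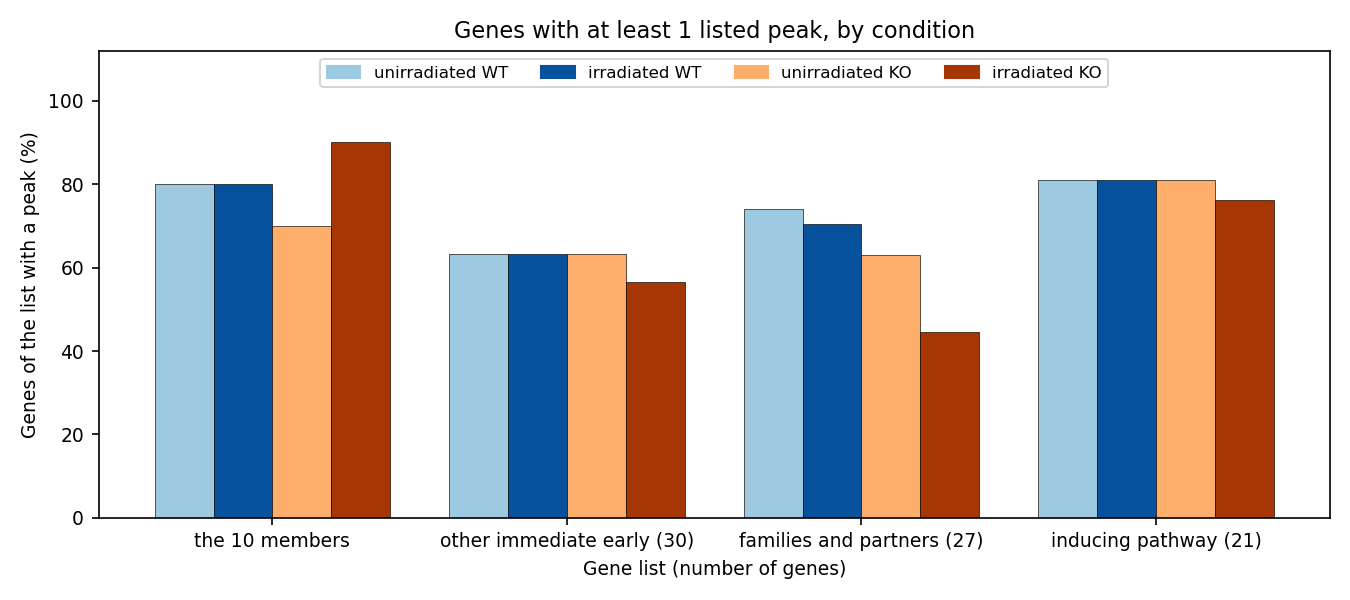
Percentage of the genes of each list with at least 1 peak (vertical axis, from 0), by condition, for the 10 immediate early genes and 3 related lists with their sizes (other immediate early genes, families and partners of the 10, and the inducing pathway). The 10 genes are highest in irradiated KO, at 9 of 10, among them ATF3 with 1 peak of 100 bases. The 3 related lists are lowest there, the pathway with 16 of 21 genes against 17 in each other list. The share among genes with a peak in any list is also lowest there, at 57.7% against 74.6%, 83.4% and 72.9%. The bars count genes without a peak in any list and that share does not, so their heights are not compared with it. With only peaks of at least 120 bases the 10 genes gave 7, 8, 7 and 8, and with at least 2 peaks per gene 6, 3, 4 and 4. No share of all genes is given at these settings, so these counts have no comparison.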

How the data were processed

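The files were 4 peak lists, 1 per condition, covering 24 samples in 8 groups (IP and input). Reads were 50-base single-end. TopHat2 2.0.14 and build hg38 are named in the submitters' processing notes; how peaks were called and replicates pooled was not stated there. The deposited values are positions (unit other), with a transcript accession, a start and an end on each line. Accessions were matched to symbols and gene coordinates with a RefSeq table (GRCh38.p14), 9563 of 9674 transcripts matching, and each of the 9 member transcripts found had 1 accession without a copy number. Depth is unknown, so precision rests on counts of peaks alone. Peaks were shared when they overlapped by at least 1 base. Intervals are exact (Clopper-Pearson, 95%, SciPy 1.17.1; Python 3.11.15). The overlap counting was checked on simulated peaks. The members, gene lists and rules were chosen with earlier results of these data known. All 10 members are named. Other genes are named from fixed lists when they had a peak in 1 list of a compared pair, or for likeness as the nearest 3 with the same 4 counts; DUSP1, CCN1, MCL1, FOSL2 and the pathway and family genes given with values were chosen after their values were seen. Alternatives covered merging, peak width, list size, copy-numbered transcripts and the overlap rule.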

Additional observations from a re-analysis of the deposited data

Results flagged for a closer look

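On 3 of the 7 members with a peak in every list (MYC, NR4A1 and IER2) the total peak length differed with UV in opposite directions in the genotypes, each genotype having 1 pooled list per condition. The other 4 (JUN, JUNB, EGR1 and BTG2) differed in the same direction. Of the 3942 genes with a peak in every list, 49.4% had opposite directions and 45.8% the same. The difference between the genotypes was not tested. For MYC, plus UV minus minus UV was -140 bases in WT, the width of the peak at 901 to 1040, and 38 bases in KO. For NR4A1 it was -44 bases in WT and 26 in KO. For IER2 it was 24 bases in WT and -18 in KO.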

How the results depend on the processing

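Of 234 recomputed counts, 117 could not change under their setting (no member transcript has a copy number, for example), and 99 of the other 117 stayed within 1.5 times the count. Of 35 recomputed shares of peaks without an overlap that could change, 19 stayed within 1.5 times the share; the exact intervals, on 13 to 17 peaks, are wide and hold all but 1. With peaks of at least 120 bases the share became 23.1% for irradiated against unirradiated WT and 14.3% for unirradiated against irradiated KO. It became 21.4% for unirradiated KO against unirradiated WT and 15.4% for irradiated WT against irradiated KO. For that last pair it was 25.6% by bases. The share of all peaks was not computed at these settings, so the shares of all peaks given above are no comparison for them. Counting members with at least 2 peaks in place of 1 gave 3 in irradiated WT and 4 in each of unirradiated KO and irradiated KO. No share of all genes is given for that count. On transcripts with a peak in both KO lists, an alternative added after the data were seen, 0% of irradiated KO peaks had no unirradiated KO overlap. With peaks of at least 120 bases, ATF3 in irradiated KO and JUNB in unirradiated WT had 0 peaks; with the widest 9471 peaks of each list, JUNB had 0 in both WT lists and JUN 0 in unirradiated KO. Replicates could not be left out, since each list pools its replicates. No paired analysis was possible because the lists carry no replicate numbers. Depth limits what the absence of a peak can show.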

Other observations

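Of the families and partners of the members, a list of 27 genes, 22 had a peak in any list. Those 22 are the set to compare with the 9560 genes, which all have a peak in some list. A peak was listed on 20 in unirradiated WT (74.6% of the 9560 genes) and 19 in irradiated WT (83.4%). It was listed on 17 in unirradiated KO (72.9%) and 12 in irradiated KO (57.7%). ATF2, MAFG, MXD4, TOB1 and KLF3, 5 of the 27, had a peak in unirradiated KO and none in irradiated KO, beside 23.8% of all genes. The reverse was found for 0, beside 8.62%. ATF7, a leucine zipper factor of the ATF2 group, had 4 and 2 peaks in the WT lists and 0 in both KO lists, and BTG1, the close relative of BTG2, had 1 in each WT list, over 590 and 585 bases, and 0 in KO. That pattern, peaks in the WT lists and 0 in KO, was shown by 681 genes of all (7.12%). The KLF relatives KLF9, KLF11 and KLF13 had 3 to 5 peaks in every list, and KLF5 had 3, 2, 3 and 3. KLF3 had 3, 2, 1 and 0. MAFG had 3, 1, 2 and 0, ATF2 1, 0, 1 and 0, and TOB1, a relative of BTG2, 1, 1, 1 and 0. In the MYC network, MYCN and MXD1 had 1 peak in unirradiated WT alone, MYCL had 2 in irradiated WT alone, and MXD4 had 0, 1, 1 and 0. Peaks in irradiated WT alone were found for 666 of all genes (6.97%), and the share in unirradiated WT alone is not given. MGA had 6, 5, 5 and 2 peaks and MNT 2, 2, 3 and 1, whereas MAX, the partner that MYC needs to bind DNA, had 0 in every list. NAB1 and NAB2, corepressors of EGR1, had 2 to 4 peaks in every list.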
